A study of Homo sapiens with 6 samples.

Results

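A set of 10 genes of the interleukin-1 (IL-1) system and the tumour necrosis factor (TNF) superfamily were followed by symbol through 6 RNA sequencing libraries of HEC-1B, a human endometrioid carcinoma cell line. The set is given by name and makes up 10 of the 23284 gene symbols listed in each library, and every member was found: the ligands IL1A, IL1B, IL18 and CD70, the receptor genes IL1R1, IL1R2 and IL1RAP, and the TNF receptors TNFRSF1A, TNFRSF12A and TNFRSF21. The libraries form 3 groups of 2. The first is labelled "high ALDH potential" and "ALDH-high accel" (here high-potential accelerated), the second carries the "ALDH-high accel" label without the potential label (HEC-1B accelerated), and the third is labelled "ALDH-high to low" (HEC-1B high-to-low). The series asks what goes with an accelerated passage of cells from low to high aldehyde dehydrogenase 1A1 (ALDH1A1) as judged by cell sorting. The sources used here do not say whether the high-potential cells are 1 clone, nor that the 2 libraries of a group are from different cultures; p-values may reflect technical spread alone. There is no high-to-low group of high-potential cells, so the potential label and the transition cannot be told apart when high-potential libraries are compared with high-to-low ones.

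IL-1 alpha and IL-1 beta are alarm cytokines that bind the receptor IL1R1, which signals only after recruiting the shared co-receptor IL1RAP. IL1R2 binds the same ligands but has no signalling domain and acts as a decoy. IL-18 is a related cytokine that epithelial cells store as an inactive precursor and that signals through IL18R1 and IL18RAP. TNFRSF1A is the main death-domain receptor for TNF, TNFRSF21 (death receptor 6) also carries a death domain, TNFRSF12A (Fn14) is a small receptor for the cytokine TWEAK, and CD70 is a membrane ligand for the lymphocyte receptor CD27.

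Values are FPKM, which scale fragments to transcript length and to the mapped total, so levels can be set against each other across genes. The libraries had 14786 to 15386 genes above 0, and depth relative to high-potential replicate 1 ran from 0.807 to 1.07. ALDH1A1 itself went against the label of 1 library: its level of 353 and 304 FPKM marked the high-potential libraries, with 28.4 and 9.44 in the high-to-low pair, but 26.7 in the library labelled HEC-1B accelerated replicate 1 against 317 in replicate 2. A code in the description of each library begins with the same digits in both high-to-low libraries and in replicate 1 of both accelerated groups, and with other digits in replicate 2 of the accelerated groups; no label says what it stands for. Of 9 epithelial markers, 7 reached 1 FPKM in every library and their list summed to between 568 and 740 FPKM, although CDH1, the E-cadherin gene, was at or below 0.0868 FPKM throughout. Lists of leukocyte (14 genes) and endothelial (7 genes) markers summed to at most 3.42 and 1.07 FPKM, with PECAM1, CD3E and MS4A1 listed at 0 in every library. Of the 9 fibroblast markers, THY1 alone exceeded 0.414 FPKM.

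Promoter windows of 300 bases (250 before and 50 after a transcript start) were taken from RefSeq on GRCh38.p14, and 7 of the 10 genes had at least 1 window. The expression files were made on hg19, so these positions serve only to show the sequences. Those of IL1A, IL1B, IL1R1, IL1R2 and TNFRSF21 are shown because the results turn on these genes. They are the ligands with the fewest fragments, the receptor pair and the member with the greatest difference between high-potential and HEC-1B accelerated libraries. IL18, CD70 and TNFRSF12A had no window. The strands are minus for IL1A, IL1B and TNFRSF21 and plus for IL1R1 and IL1R2, each sequence is written 5′ to 3′ along its gene, and capitals mark matches to TATAAA or TGANTCA. IL1A has 2 listed starts, IL1R2 has 2 and IL1R1 has 4, of which 1 each is printed, chosen after the windows had been seen.
IL1A chr2:112784444-112784743: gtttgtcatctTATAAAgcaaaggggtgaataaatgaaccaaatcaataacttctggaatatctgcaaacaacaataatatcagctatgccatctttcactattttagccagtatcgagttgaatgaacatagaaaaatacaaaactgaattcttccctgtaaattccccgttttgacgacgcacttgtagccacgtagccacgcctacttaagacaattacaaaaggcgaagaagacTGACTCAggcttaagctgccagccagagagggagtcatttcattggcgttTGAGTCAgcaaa
IL1B chr2:112836730-112837029: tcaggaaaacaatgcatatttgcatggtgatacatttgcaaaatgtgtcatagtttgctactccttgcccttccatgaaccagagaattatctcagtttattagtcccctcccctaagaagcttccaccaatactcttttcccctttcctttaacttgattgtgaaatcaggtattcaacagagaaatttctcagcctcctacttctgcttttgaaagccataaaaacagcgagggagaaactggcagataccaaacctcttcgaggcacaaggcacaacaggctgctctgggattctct
IL1R1 chr2:102142496-102142795: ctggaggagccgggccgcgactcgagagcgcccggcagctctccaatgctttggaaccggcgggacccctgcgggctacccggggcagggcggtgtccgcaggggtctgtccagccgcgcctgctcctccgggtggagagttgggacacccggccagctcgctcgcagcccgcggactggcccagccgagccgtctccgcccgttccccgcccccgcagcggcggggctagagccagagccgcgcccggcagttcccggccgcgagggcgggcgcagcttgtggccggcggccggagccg
IL1R2 chr2:101991710-101992009: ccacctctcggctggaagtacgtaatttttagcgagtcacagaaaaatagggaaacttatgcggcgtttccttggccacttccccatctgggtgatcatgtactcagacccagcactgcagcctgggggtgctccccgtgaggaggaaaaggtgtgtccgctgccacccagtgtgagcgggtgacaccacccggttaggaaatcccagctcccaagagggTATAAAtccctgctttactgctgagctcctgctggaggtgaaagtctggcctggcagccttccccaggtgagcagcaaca
TNFRSF21 chr6:47309856-47310155: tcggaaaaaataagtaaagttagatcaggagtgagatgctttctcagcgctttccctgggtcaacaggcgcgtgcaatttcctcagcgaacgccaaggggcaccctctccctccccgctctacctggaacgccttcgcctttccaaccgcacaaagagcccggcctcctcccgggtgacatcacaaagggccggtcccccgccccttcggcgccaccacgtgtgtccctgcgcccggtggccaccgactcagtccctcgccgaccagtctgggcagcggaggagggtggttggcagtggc

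The windows differ in base composition, also between starts of 1 gene. IL1B was 42.3% G and C with 2 CpG pairs and IL1A 39.7% with 8, against 77.7% with 40 CpG pairs for the printed IL1R1 window and 63.3% with 23 for TNFRSF21; the median over 35116 windows of this length was 58.7% G and C. The other 3 IL1R1 windows were 52.7, 51.0 and 44.3% with 7, 4 and 8 CpG pairs, all below that median, and the last of them held 2 matches to TATAAA on the opposite strand. The printed IL1R2 window lay between those of IL1B and TNFRSF21, with 56.3% and 9 CpG pairs, and held TATAAA at positions -30 to -25 from the start. IL1A held TATAAA at -239 to -234 and the AP-1 form TGANTCA, which reads the same on both strands, at -12 to -6 and at 39 to 45. On either strand, TATAAA occurred in 11.5% of all windows and TGANTCA in 7.71%.

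In 1 limma model over the 6 libraries, fitted to log2(FPKM + 1) of the 12135 genes reaching 1 FPKM in 2 or more libraries, none of the 9 members tested passed an adjusted p of 0.05 in any of the 3 comparisons between groups (IL1A fell below the filter on low values). Over all genes 0.494% passed between high-potential and HEC-1B accelerated libraries, 0.799% between high-potential and high-to-low and 0.0165% between HEC-1B accelerated and high-to-low. At an unadjusted limma p under 0.05 there were 2 members in the first comparison (IL1R1 and TNFRSF21), 3 in the second (IL1R1, TNFRSF12A and TNFRSF21) and 2 in the third (IL1R2 and CD70), where all genes gave 14.3, 18.4 and 0.972%. Libraries of the compared groups did not overlap for 4 of 9 members in the first comparison and 5 of 9 in the second, near the 43.4 and 51.1% of all genes. Between HEC-1B accelerated and high-to-low libraries 4 of 9 did not overlap, against 24.1% of all genes, and all 4 were lower in the accelerated libraries (IL1R2, CD70, TNFRSF1A and TNFRSF12A), beside 12.7% of all genes. The median log2 difference of the 9 members was 0.051, -0.18 and -0.21 in the 3 comparisons, with 0.0050, -0.010 and -0.016 over all genes. An exact permutation test of 2 libraries against 2 cannot give a p below 0.333 and was not used. The comparisons share libraries, so their results are not independent. In bulk RNA, fewer cells that express a gene and less of its RNA per cell cannot be told apart.

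**Figure D1:**
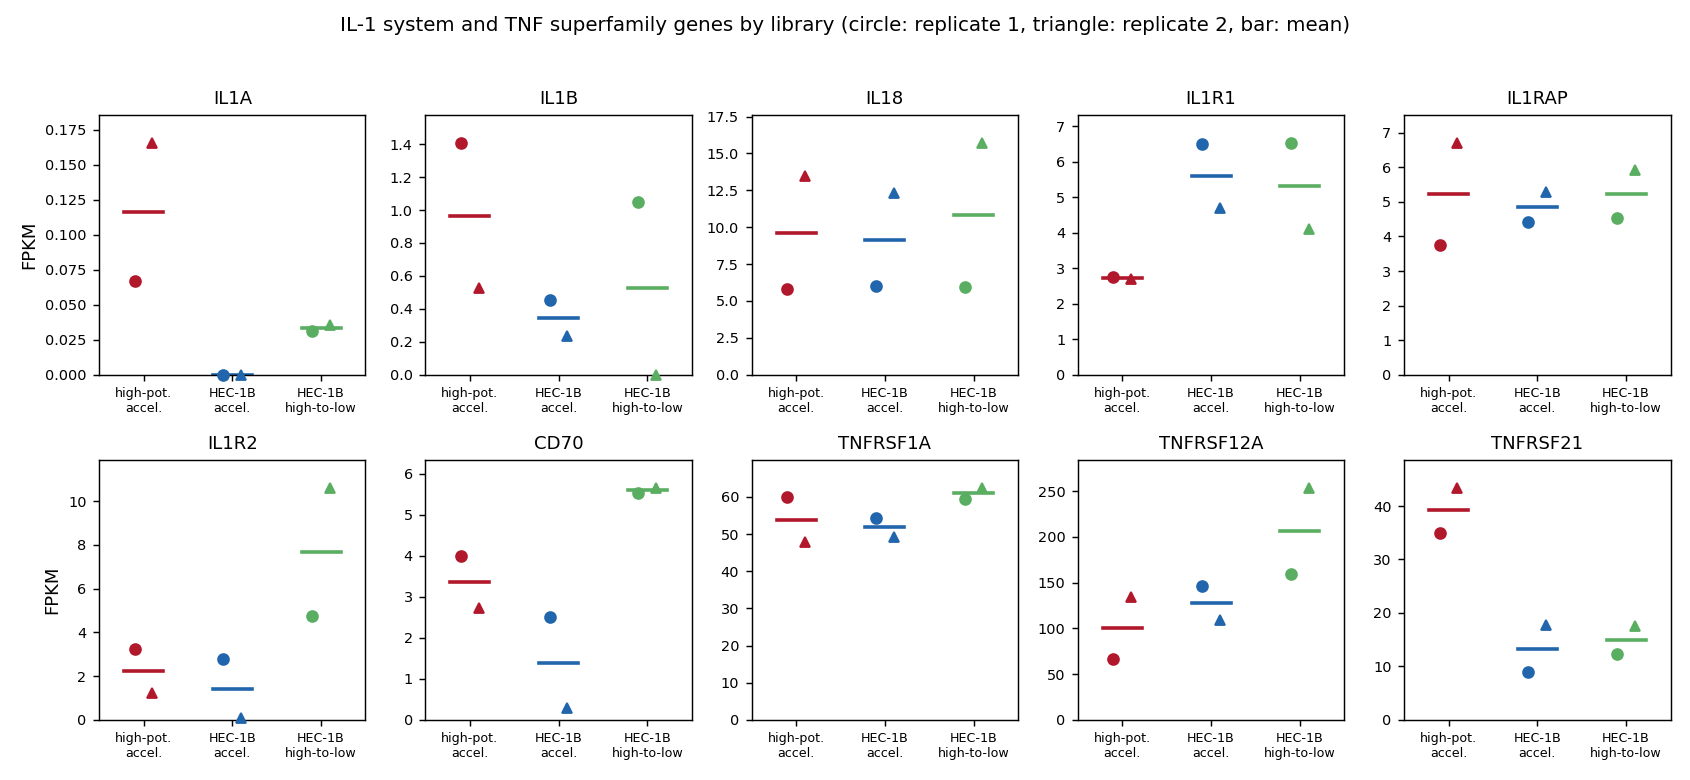
FPKM of each gene (vertical axes, from 0) in the 3 groups (horizontal axes); circles are replicate 1, triangles replicate 2 and bars the mean of 2. TNFRSF21 is highest and IL1R1 lowest in both high-potential libraries, IL1R2 and CD70 are highest in the high-to-low pair, and IL18 splits by replicate in every group.

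The IL-1 ligand genes were barely detected. IL1A was 0.0668 and 0.166 FPKM in the high-potential pair, listed at 0 in both HEC-1B accelerated ones and 0.0311 and 0.0357 in the high-to-low pair. Low values rise in whole steps of what 1 fragment is worth, and after scaling to depth the IL1A values correspond to 2 and 4, 0 and 0, and 1 and 1 fragments, taking the smallest set of whole numbers that matches (each within 0.1 of a fragment). The high-potential libraries were thus the highest, but on so few fragments that no fold is given. A value of 0 was read against a set limit of 3 fragments, or 0.108 and 0.110 FPKM in the HEC-1B accelerated libraries. The exact Poisson 95% interval for 0 fragments ends slightly higher, at 3.69.

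IL1B, whose product is cut from a precursor before it acts, was 1.41 and 0.524 FPKM in the high-potential pair, 0.454 and 0.232 in the HEC-1B accelerated pair and 1.05 and 0 in the high-to-low pair. In fragments these are 20 and 6, 6 and 3, and 16 and 0. The high-to-low libraries held both the second highest value and the lowest. High-potential libraries lay above HEC-1B accelerated ones without overlap, but the difference of 0.52 on the log2(FPKM + 1) scale (SE 0.42, limma adjusted p = 0.654) was no larger than the spread between replicates. The difference was 0.85 without high-potential replicate 2, and 0.64 and 0.40 without HEC-1B accelerated replicate 1 and replicate 2. Without high-potential replicate 1, the library with the highest value, IL1B fell below the filter. Exact Poisson 95% intervals, which cover counting error only, were 12.2 to 30.9 fragments for the 20 and 2.2 to 13.1 for the 6 of the second high-potential library, so the intervals of the replicates overlap only at their edges. IL1RN, the natural receptor antagonist, stayed at or below 0.460 FPKM.

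IL18 was the IL-1 family ligand with the most transcript in every library, and it followed the replicate number instead of the group. Its values were 5.78 and 13.4 FPKM in the high-potential pair, 6.01 and 12.3 in the HEC-1B accelerated pair and 5.94 and 15.7 in the high-to-low pair. All 3 libraries numbered 1 lay within 5.78 to 6.01 FPKM, and all 3 numbered 2 lay at 12.3 or above. The group means, 9.61 ± 5.41, 9.15 ± 4.44 and 10.8 ± 6.92 FPKM (SD, n = 2 each), differed by far less than the replicates did. The co-receptor IL1RAP showed the same order at smaller size, with 3.74, 4.41 and 4.54 FPKM in the libraries numbered 1 and 6.72, 5.29 and 5.91 in those numbered 2. Between groups neither gene differed by more than 0.16 on the log2 scale (limma adjusted p from 0.936 to 1). Among the 12135 genes tested, 11.6% had all 3 libraries numbered 2 above all 3 numbered 1, and 3.91% had a gap of at least 0.4 on the log2 scale within each group, as IL18 had with 1.09, 0.92 and 1.27. No label calls the number a batch or a pairing.

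**Figure D2:**
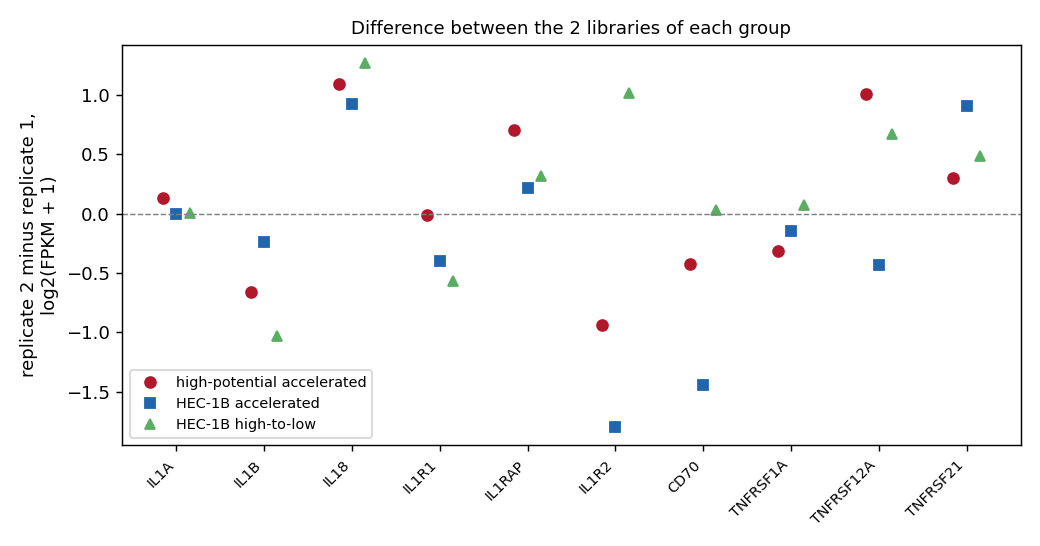
Difference between replicate 2 and replicate 1 of each group on the log2(FPKM + 1) scale (vertical axis) for each of the 10 genes (horizontal axis); symbols stand for the 3 groups. IL18 lies between 0.92 and 1.27 in every group, IL1RAP lies above 0 in every group, and IL1R2 and CD70 fall furthest in the HEC-1B accelerated pair, by 1.80 and 1.45.

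Partner genes of IL-18 were uneven. IL18R1, which binds the cytokine, was 1.32 and 1.67 FPKM in the high-potential pair and between 0.204 and 0.543 in the other 4 (log2 difference 0.81, SE 0.25, limma adjusted p = 0.215 against HEC-1B accelerated; 1.01 and 0.116 against high-to-low). IL18RAP, the second chain, was at or below 0.122 FPKM in all libraries. CASP1, which cleaves the IL-1 beta and IL-18 precursors, was 0.910 FPKM in high-potential replicate 1, 0.138 in HEC-1B accelerated replicate 2 and listed at 0 in the other 4.

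The signalling receptor gene IL1R1 was lower in the high-potential libraries than in all others. It stood at 2.75 and 2.71 FPKM there, against 6.51 and 4.70 in the HEC-1B accelerated pair and 6.54 and 4.10 in the high-to-low pair. The high-potential replicates nearly coincided (2.73 ± 0.0260, SD, n = 2). Both lay below the other 4 libraries, as was the case for 17.5% of the genes tested. The log2 differences were -0.81 (SE 0.28, limma adjusted p = 0.268) and -0.73 (SE 0.28, adjusted p = 0.244), neither past the threshold of 0.05. Without HEC-1B accelerated replicate 1, the library at odds with its label, the first was -0.61 (adjusted p = 0.546). The second was -0.45 once high-to-low replicate 1 was left out (adjusted p = 0.591). The other groups, at 5.60 ± 1.28 and 5.32 ± 1.73 FPKM (SD, n = 2 each), differed by less than their spread.

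IL1R2, the decoy receptor, had the widest range of the 10 genes. It measured 3.26 and 1.22 FPKM in the high-potential pair, 2.77 and 0.0833 in the HEC-1B accelerated pair and 4.73 and 10.6 in the high-to-low pair. The high-to-low libraries were the highest 2 of the 6, and HEC-1B accelerated replicate 2 stood alone at the bottom: its value is worth 1 fragment (exact Poisson 95% interval 0.0253 to 5.57) where replicate 1 had 34 (23.5 to 47.5). The values also split fully by the description code. Replicate 2 of both accelerated groups, which carries the other digits, gave the lowest 2 of the 6. No high-to-low library carries those digits, so group and code are partly confounded here. Against high-to-low, HEC-1B accelerated libraries differed by -2.01 on the log2(FPKM + 1) scale (SE 0.67, limma adjusted p = 1), which was -1.11 without HEC-1B accelerated replicate 2 and -2.91 without replicate 1, and high-potential libraries by -1.41 (SE 0.67, adjusted p = 0.334). With a term for the description code these were -1.33 and -0.72, and the second was -0.90 when high-to-low replicate 2 was left out and -0.94 when high-potential replicate 2 was. High-potential and HEC-1B accelerated libraries overlapped (0.61, adjusted p = 0.757). That difference was -0.29 without HEC-1B accelerated replicate 2, 1.5 without its replicate 1, and 0.14 and 1.08 without high-potential replicate 1 and replicate 2.

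Set against each other, IL1R1 and IL1R2 changed places between libraries. The FPKM ratio of IL1R1 to IL1R2 was 0.843 and 2.22 in the high-potential pair, 2.35 and 56.4 in the HEC-1B accelerated pair and 1.38 and 0.386 in the high-to-low pair. Decoy transcript exceeded signalling receptor transcript in high-potential replicate 1 and high-to-low replicate 2. The ratio of 56.4 rests on the single IL1R2 fragment. Both HEC-1B accelerated ratios lay above the other 4, while the high-potential and high-to-low ratios overlapped; these ratios were not tested.

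**Figure D3:**
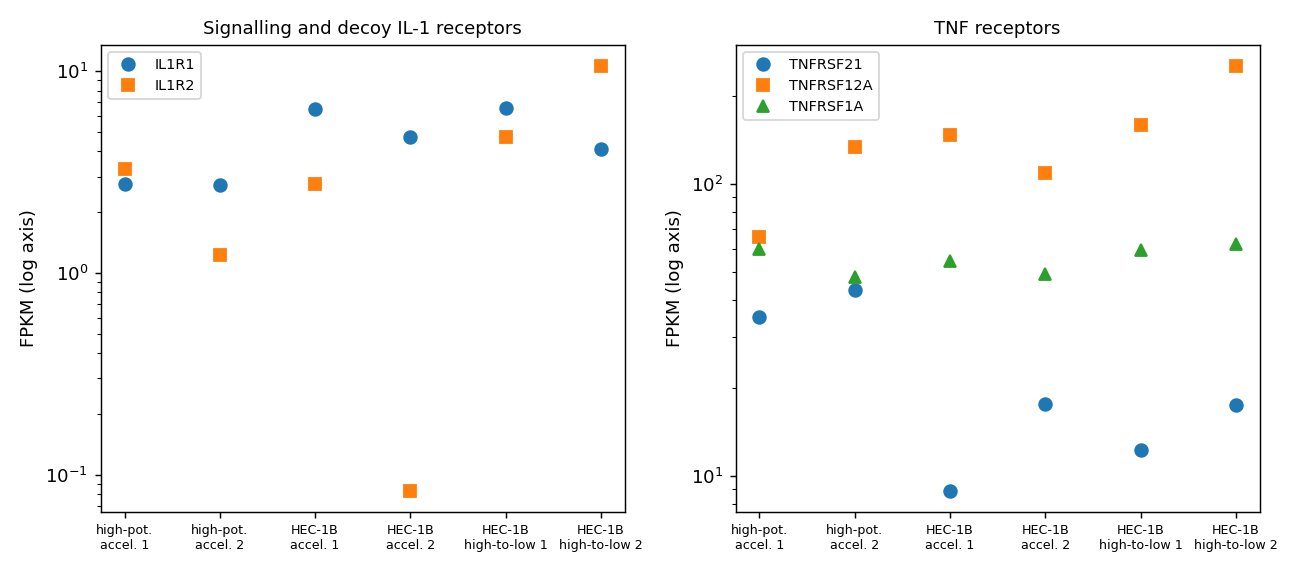
FPKM on a log axis in each of the 6 libraries for the IL-1 receptors (left) and the TNF receptors (right); the number after each group is the replicate. IL1R2 spans 0.0833 to 10.6 FPKM while IL1R1 stays between 2.71 and 6.54, and TNFRSF21 is highest in the 2 high-potential libraries.

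CD70 resembled IL1R2. Its values were 4.0 and 2.72 FPKM in the high-potential pair, 2.49 and 0.284 in the HEC-1B accelerated pair and 5.52 and 5.65 in the high-to-low pair. The 3 groups did not overlap, with high-to-low highest and HEC-1B accelerated lowest, and HEC-1B accelerated replicate 2 was again the low point, at 2 fragments against 18 in replicate 1. The difference between HEC-1B accelerated and high-to-low libraries was -1.64 in log2 units (SE 0.47, limma adjusted p = 1; -0.91 without HEC-1B accelerated replicate 2 and -2.36 without replicate 1). High-potential libraries were 1.02 above HEC-1B accelerated ones (SE 0.47, adjusted p = 0.40; 0.30 without HEC-1B accelerated replicate 2 and 1.75 without replicate 1) and -0.61 from high-to-low ones (adjusted p = 0.545; -0.14 with the code term and -0.40 without high-potential replicate 2). CD27, the receptor for CD70, did not exceed 0.389 FPKM.

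HEC-1B accelerated replicate 2 also stood apart in THY1, a surface glycoprotein on the fibroblast marker list, at 8.04 FPKM against 108 to 314 in the other 5 libraries. The other 8 genes of that list summed to between 0.120 and 0.603 FPKM in all libraries, with COL3A1, DCN and FAP listed at 0. Whether THY1 bears on the low IL1R2 and CD70 values was not tested. By root mean square difference of log2 profiles centred on their own mean over the 6 libraries, the tested genes nearest to CD70 were GAMT (0.288), PKIA (0.317) and C1orf233 (0.326), all lowest in that library at 3.59, 2.84 and 5.47 FPKM. The nearest to IL1R2 were HIST1H2AD (0.431), CD70 (0.469) and SCARNA13 (0.540). All these genes were picked for their match, so the match is no further evidence.

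TNFRSF21 separated the high-potential libraries most clearly. It measured 35.0 and 43.4 FPKM in those libraries, 8.93 and 17.6 in the HEC-1B accelerated pair and 12.3 and 17.6 in the high-to-low pair. Both high-potential values lay above all 4 others, as was the case for 15.3% of the genes tested. The group mean of 39.2 ± 5.92 FPKM (SD, n = 2) was 2.95 times that of HEC-1B accelerated and 2.63 times that of high-to-low libraries. The log2 differences were 1.56 (SE 0.35, limma adjusted p = 0.126) and 1.35 (SE 0.35, adjusted p = 0.126), larger than the spread between replicates but short of the threshold over all genes. Without HEC-1B accelerated replicate 1 the first was 1.10 (adjusted p = 0.276). With a term for the replicate number, a block that the labels do not call a pairing, both passed (adjusted p = 0.0230 and 0.0232). HEC-1B accelerated and high-to-low libraries overlapped (-0.21, adjusted p = 1). The tested genes nearest to TNFRSF21 in profile were FLNC (0.216), PMEPA1 (0.224) and MYO1D (0.234). Each lay between 1.95 and 3.20 FPKM in the high-potential libraries and at most 0.964 in the others. They passed the filter only through the high-potential libraries and were picked for their match, so the match is no further evidence.

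TNFRSF12A was the most abundant of the 10 genes in every library and was highest in the high-to-low pair. It measured 66.1 and 134 FPKM in the high-potential pair, 147 and 109 in the HEC-1B accelerated pair and 159 and 254 in the high-to-low pair. The high-to-low libraries were the highest 2 and overlapped with neither other group, while the accelerated groups overlapped each other. With high-to-low as reference, high-potential libraries differed by -1.09 in log2 units (SE 0.40, limma adjusted p = 0.229) and the HEC-1B accelerated libraries by -0.67 (SE 0.40, adjusted p = 1); without high-potential replicate 1 the first of these was -0.58, and the second was -0.33 without high-to-low replicate 2 and -1.0 without replicate 1. TNFSF12, which encodes the ligand TWEAK, was low, from 0.261 to 1.91 FPKM.

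TNFRSF1A varied least. Its values were 59.9 and 47.9 FPKM in the high-potential pair, 54.5 and 49.2 in the HEC-1B accelerated pair and 59.5 and 62.5 in the high-to-low pair. The top value was 1.30 times the lowest, and no comparison exceeded a log2 difference of 0.23 in size (SE 0.19, limma adjusted p = 1 for the greatest). Relative to it, TNFRSF21 stood at 0.585 and 0.906 of the TNFRSF1A level in the high-potential libraries and between 0.164 and 0.359 in the others. The second TNF receptor, TNFRSF1B, did not exceed 0.115 FPKM.

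**Figure D4:**
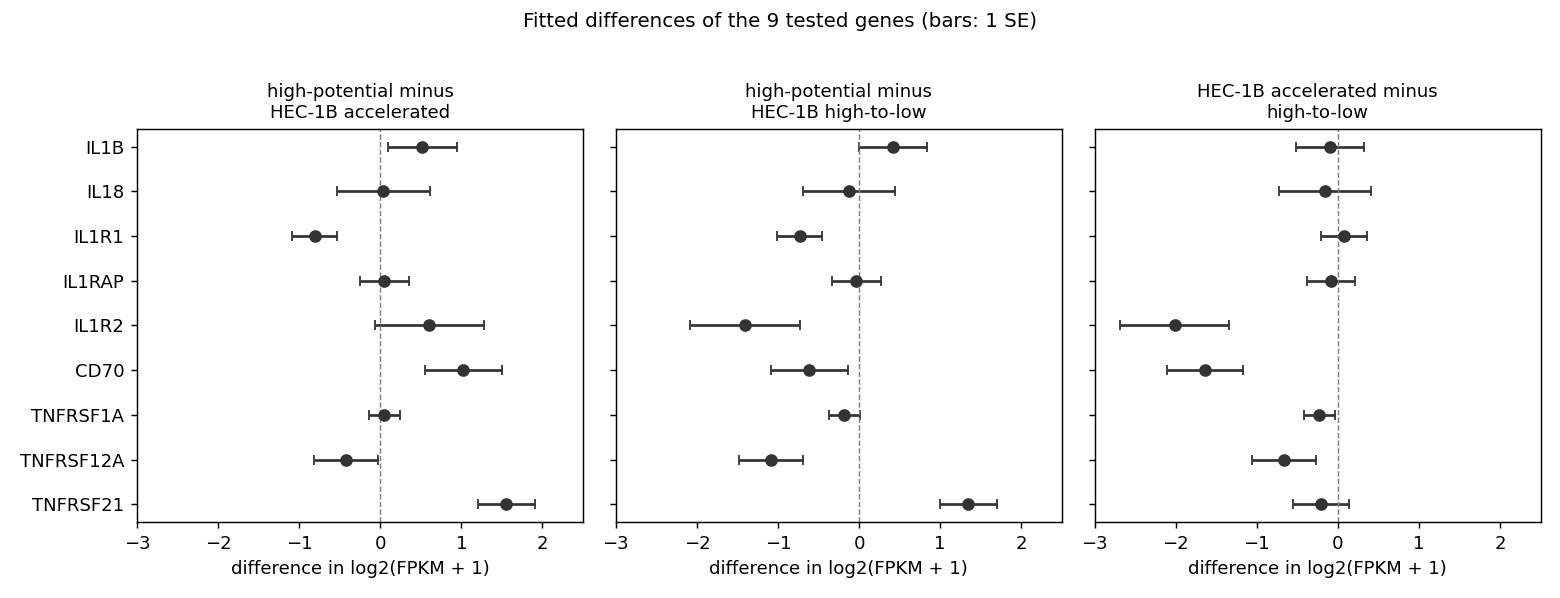
Fitted differences in log2(FPKM + 1) (horizontal axes) for the 9 tested genes (vertical axis) in the 3 comparisons; points are estimates and bars 1 SE. TNFRSF21 lies at 1.56 and 1.35 in the high-potential comparisons and at -0.21 between the HEC-1B groups, where IL1R2 (-2.01) and CD70 (-1.64) lie furthest from 0.

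The wider pathway was read from 8 lists of IL-1 and TNF family ligands, receptors, signalling, processing and shedding genes, which hold 137 genes beside the 10, of which 78 passed the filter. TNF, the ligand of TNFRSF1A, was the only one called. Its values were 5.23 and 12.5 FPKM in the high-potential pair, 0.0669 and 0.0684 in the HEC-1B accelerated pair and 0 and 0.133 in the high-to-low pair, worth 84 and 162, 1 and 1, and 0 and 2 fragments. The high-potential libraries stood far above the others, and TNF rose there by 3.10 on the log2(FPKM + 1) scale against HEC-1B accelerated (SE 0.39, limma adjusted p = 0.0411) and by 3.11 against high-to-low (adjusted p = 0.0337). Both calls sat near the threshold: over the alternatives the adjusted p ran from 0.0170 to 0.150 and from 0.0153 to 0.223, and without HEC-1B accelerated replicate 1 it was 0.126 and 0.0413. TNF passed the filter only through the high-potential pair, and without either of these libraries it fell below the filter. With no filter the limma adjusted p of the first comparison was 0.150, so that call was lost. None was called lower, and none was called between HEC-1B accelerated and high-to-low libraries, where CFLAR alone had an unadjusted p under 0.05. At that level there were 18 of 78 genes in the first comparison and 19 of 78 in the second (23.1 and 24.4%, beside 14.3 and 18.4% of all genes). The lists were chosen with earlier results of these data known, so these shares are no test of the pathway. Some of the genes, among them TNF and IL18R1, passed the filter only through the high-potential libraries.

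Of the IL-1 receptor signalling list, 18 of 20 genes were tested and 13 had a positive difference between high-potential and HEC-1B accelerated libraries (median 0.23). For this and the lists below, the counts over all 12135 genes were 6119 positive in that comparison and 5972 positive against high-to-low. MAP3K7, the TAK1 kinase that relays IL-1 and TNF receptor signals, was 99.3 and 107 FPKM in the high-potential pair and 49.8 to 58.2 in the other 4 (log2 difference 0.92, SE 0.18, limma adjusted p = 0.107; 0.96 and 0.0789 against high-to-low). Its binding partner TAB2 was 9.96 and 9.28 against 5.51 to 6.87 FPKM. IRAK2, a kinase of the receptor complex, was 3.01 and 1.52 FPKM in the high-potential pair and overlapped there with the HEC-1B accelerated pair (3.54 and 1.87). In the high-to-low pair it was 4.31 and 5.51 (limma adjusted p = 0.252 against high-potential). MYD88, the adaptor of the pathway, stayed at or below 0.687 FPKM in every library. SIGIRR, an inhibitory member of the receptor family, ranged from 6.93 to 13.3 FPKM with overlapping groups.

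With the members included, the receptor list had 12 of 29 genes tested, of which 7 were higher and 5 lower in high-potential than in HEC-1B accelerated libraries and 5 higher and 7 lower than in high-to-low ones (medians 0.10 and -0.22). The ligand list had 6 of 18 tested, 2 higher and 4 lower in the first comparison and 1 higher and 5 lower in the second (medians -0.55 and -0.71). FAS, a death receptor, was 18.3 and 15.2 FPKM in the high-potential pair, 40.4 and 27.9 in the HEC-1B accelerated pair and 43.0 and 38.5 in the high-to-low pair (limma adjusted p = 0.153 and 0.0802). TNFSF9, the ligand of the co-stimulatory receptor 4-1BB, was 23.3 and 24.7 FPKM against 43.5 to 60.8 (adjusted p = 0.113 and 0.0585). TNFRSF11B, the soluble decoy osteoprotegerin, was 14.3 and 3.32 against 16.5 to 48.5 FPKM (adjusted p = 0.240 and 0.251), and TNFSF10, the ligand TRAIL, was 0.797 and 1.06 against 2.13 to 15.9 FPKM (adjusted p = 0.406 and 0.271). These 4 did not overlap between the high-potential and the other libraries, as was the case for 17.5% of the genes tested in that direction. In the other direction TNFRSF10D, a decoy receptor for TRAIL, was 32.1 and 25.4 against 12.6 to 19.1 FPKM (adjusted p = 0.301 and 0.167), and RELT, another receptor of the family, was 4.05 and 4.64 against 2.60 to 3.21 FPKM (adjusted p = 0.421 and 0.399). Both genes were higher in the high-potential pair than in all other libraries, as was the case for 15.3% of the genes tested. FAS, TNFSF9, TNFRSF11B and TNFSF10 were picked for the size of their difference, and TNFRSF10D and RELT after their values were seen. Their lack of overlap is thus no further evidence. TNFRSF14 overlapped, at 3.88 and 1.20 against 0.934 to 11.2 FPKM.

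In the TNF receptor signalling list 28 of 30 genes were tested, with 21 positive differences against HEC-1B accelerated and 19 against high-to-low (medians 0.14 and 0.13). Over all 12135 genes, 6119 and 5972 were positive. BIRC3, an inhibitor of apoptosis recruited to TNF receptors, was 4.83 and 8.25 FPKM in the high-potential pair, 2.03 and 2.12 in the HEC-1B accelerated pair and 1.30 and 1.17 in the high-to-low pair (limma adjusted p = 0.127 and 0.0634). MAP3K14, the kinase NIK of the noncanonical NF-kB pathway, was 17.8 and 17.6 against 7.78 to 11.7 FPKM (adjusted p = 0.201 and 0.104). TNFAIP3, the deubiquitinase A20, was 2.75 and 3.73 against 0.621 to 2.17 FPKM (adjusted p = 0.446 and 0.312). Negative differences numbered 7 and 9. Among them, TRADD was 6.99 and 4.86 against 10.9 to 12.5 FPKM (adjusted p = 0.170 and 0.131). MLKL was 3.36 and 4.85 against 5.56 to 12.4 FPKM (adjusted p = 0.375 and 0.275), and XIAP 2.35 and 2.55 against 3.41 to 5.85 FPKM (adjusted p = 0.343 and 0.315). None of these differences passed the threshold.

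The processing and release list had 11 of 22 genes tested, with 7 and 8 negative differences and a median of -0.16 and -0.079 in the high-potential comparisons; the shedding list had 6 of 7 tested, with medians of 0.073 and -0.19. S100A13, a carrier in the release of IL-1 alpha, was 299 and 272 against 179 to 215 FPKM (limma adjusted p = 0.320 and 0.220). DFNA5, the pore protein gasdermin E, was 15.4 and 9.49 FPKM in the high-potential pair and 16.3 and 16.3 in the HEC-1B accelerated pair. In the high-to-low pair it was 20.1 and 26.7 (limma adjusted p = 0.177 against high-potential). CASP8 was 19.5 and 18.9 FPKM in the HEC-1B accelerated libraries and 11.6 to 14.9 in the other 4. ADAM17, the sheddase of TNF and its receptors, was 17.5 and 17.0 against 12.8 to 14.0 FPKM, ADAM10 overlapped at 115 and 166 against 153 to 228 FPKM, and RHBDF1, an ADAM17 cofactor, was 7.51 and 7.69 against 11.7 to 15.6 FPKM (adjusted p = 0.222 and 0.176).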

How the data were processed

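RNA was measured in 6 HEC-1B libraries. Per the labels' protocols, a miRNeasy kit gave the RNA, SMART-Seq v4 the cDNA and a Nextera kit the libraries, which keeps no strand, so antisense and overlapping genes cannot be separated. The authors deposited 1 FPKM value per symbol and library, made with TopHat2 2.0.13 and Cuffnorm 2.2.1 on hg19 per the submitters' processing notes; for the annotation and the library scaling, the step is not given in the sources used here.

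Genes reaching 1 FPKM in 2 or more libraries (12135 of 23284) were fitted on log2(FPKM + 1), which understates changes of low genes, with limma 3.58.1 (R 4.3.3; variance trend, 3 residual degrees of freedom, two-sided, Benjamini-Hochberg over all genes). The step was tested on simulated data. Relative depth came from genes under 0.3 FPKM whose ratios between libraries agree within 3%, and fragment numbers from the smallest whole multiples, checked up to 20 fragments within 0.1; true numbers could be multiples of these. The members and lists were chosen with earlier results of these data known. Named list genes are those called. In each list they also include up to 3 with the greatest difference of high-potential from another group at a mean of at least 3 FPKM. Partner genes of the members (IL1RN, IL18R1, IL18RAP, CASP1, CD27, TNFSF12, TNFRSF1B, MYD88) were added after their values were seen. So were TNFRSF10D, RELT, THY1, CFLAR, TRADD, MLKL and XIAP. Profile neighbours are 3 per member with a log2 range of at least 2. There were 18 alternative settings.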

Additional observations from a re-analysis of the deposited data

How the results depend on the processing

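Over 18 alternative settings, 448 member differences kept their direction and side of the threshold, 25 changed direction and 2 became called; IL1B gave no value where it fell below the filter. With a replicate block, TNFRSF21 passed in both high-potential comparisons (limma adjusted p = 0.0230 and 0.0232), so 1 member was called in each in place of 0. Its adjusted p ranged from 0.0230 to 0.567 and from 0.0232 to 0.477 over the settings, with a log2 difference of at least 1.05. The labels give no pairing, and replicate deviations of the groups correlated at 0.187, 0.158 and 0.281 across genes.

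Direction changes touched differences that were not called, and their cause was not tested. Leaving out 1 library at a time, the log2 difference between high-potential and HEC-1B accelerated ranged from -0.51 to 0.58 for IL18, -0.30 to 0.40 for IL1RAP, -0.29 to 1.5 for IL1R2, -0.11 to 0.21 for TNFRSF1A and -0.92 to 0.082 for TNFRSF12A. Between high-potential and high-to-low it ranged from -0.76 to 0.51 for IL18, -0.38 to 0.32 for IL1RAP and -0.097 to 0.75 for IL1B, and IL1RAP was 0.020 without small RNA genes. Between the HEC-1B groups it ranged from -0.79 to 0.48 for IL18, -0.24 to 0.076 for IL1RAP, -0.20 to 0.36 for IL1R1, -0.66 to 0.25 for TNFRSF21 and -0.61 to 0.023 for IL1B, which was 0.34 with a pseudocount of 0.1 and 0.13 with a term for the code in the description.

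Differences of low genes move with the pseudocount: IL1R2 between the HEC-1B groups was -3.31 at 0.1 and -0.97 at 5, and CD70 -2.51 and -0.75. TNF kept its direction throughout and its call in 7 of 16 and 9 of 16 settings of the high-potential comparisons.

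Calls over all genes, 60 (high-potential against HEC-1B accelerated), 97 (against high-to-low) and 2 (between the HEC-1B groups), became 31, 54 and 4 with a pseudocount of 0.1 and 105, 54 and 7 with the code term. The replicate block gave 546 and 944 in the high-potential comparisons. No filter gave 45 against high-to-low and 35 between the HEC-1B groups, where leaving out small RNA genes gave 0 and fitting those groups alone gave 7. Without 1 library the counts ranged from 4 to 39, from 3 to 129 and from 2 to 7. IL1A and IL1B are limited by depth, at 0 to 4 and 0 to 20 fragments.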
